A study of Mus musculus with 9 samples.

Results

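Hearts of newborn mouse pups labelled as carrying a cardiac specific knockout of Cd36 (CD36CKO, 3 libraries) were compared with hearts of wild-type pups (WT, 3 libraries), 6 of the 9 libraries of the series, by RNA sequencing of the whole heart on postnatal day 1. The other 3 libraries, from pups labelled with a whole-body knockout of Cd36 (CD36KO), entered only where stated. The comparison was made over the 12209 genes with a mean of at least 1 FPKM (fragments per kilobase of a transcript's length, with library size divided out) across the 6 libraries, out of 56748 in the table. The sources used here do not give the Cre line or promoter of the cardiac deletion, the deleted exons, the strain or the litters. A group is 3 libraries that the labels number as replicates, and nothing says that each came from its own animal, so p-values measure only how far these libraries scatter, which may be technical.

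CD36 is a membrane protein that helps long-chain fatty acids into cells, and in heart muscle it is a main route for the fatty acids that are burned in mitochondria. Around birth the mouse heart turns from glucose and lactate to fatty acids, and its muscle cells, which still divide in the first days, soon leave the cell cycle. Inside the cell fatty acids are carried by FABP proteins and can bind PPAR nuclear receptors, which pair with RXR receptors on the genes of fat catabolism. The title of the series ties Cd36, Fabp5 and Ppard to the division of newborn heart muscle cells, and the comparison asks which transcripts differ when Cd36 is deleted in the heart alone.

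Each of the 6 libraries rested on 15155839 to 20725356 reads. Replicates correlated at 0.971 to 0.983 among CD36CKO libraries and at 0.957 to 0.987 among WT libraries, and the median SD of a gene on the log2 scale was 0.142 and 0.209. The first principal component, with 48.9% of the variance, separated the groups, and the second (24.95%) set WT 3 apart from the other 5. CD36CKO 3 held transcripts of skeletal muscle: 18 of the 35 genes of that list were over 10 times higher there than in any other library, and they summed to 3318 FPKM, against 67.2 and 46.1 FPKM in CD36CKO 1 and 2 and 64.5 to 124 FPKM in WT. Mylpf, a light chain of fast skeletal myosin, had 0.979, 0.923 and 685 FPKM in CD36CKO hearts, against 2.66, 3.21 and 1.59 FPKM in WT hearts. CD36CKO 3 was also the only one of the 6 libraries with clear Y-linked transcripts (Eif2s3y at 17.2 FPKM, against at most 0.143 FPKM in the other 5). Transcripts of the mitochondrial genome took 10.3 to 12.2% of the reads in CD36CKO libraries and 4.55 to 8.89% in WT libraries, and haemoglobin transcripts 0.379 to 0.472% and 0.510 to 0.707%. Results are therefore given with and without CD36CKO 3 where they rest on it.

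Cd36 itself was not lower in the hearts labelled CD36CKO. The gene (ENSMUSG00000002944, chromosome 5, 17986688 to 18093799 on the minus strand in the deposited table, build not stated) had 201, 183 and 163 FPKM in CD36CKO hearts, against 163, 150 and 125 FPKM in WT hearts. The lowest CD36CKO library lay at the level of the highest WT library, and the means were 183 ± 18.8 and 146 ± 19.4 FPKM (SD, n = 3 each). The log2 fold change was 0.32 (SE 0.17; adjusted p = 0.272 from limma). With quantile normalization it was 0.67 and passed (adjusted p = 0.0435 from limma), in the direction opposite to a loss. The CD36KO hearts had 72.4, 64.0 and 60.6 FPKM, and the difference between CD36CKO and CD36KO was 1.46 on the log2 scale (adjusted p = 0.00804 from limma over the 9 libraries). The value sums all exons over all cells of the heart, so a deleted exon cannot be seen in it, and endothelial and other cells may express Cd36 too. Every direction below is drawn from a label that the level of Cd36 does not bear out, and the libraries are called by that label only.

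Across all genes 141 were higher in CD36CKO-labelled hearts than in WT hearts (1.15% of those tested) and 375 were lower (3.07%) at an adjusted p under 0.05 from limma. Of these, 35 were higher and 196 lower with a log2 fold change of 1 or more in size. All 516 had libraries that did not overlap between the groups. Over all genes, the libraries of 15.6% lay apart with CD36CKO on top and of 17.0% with WT on top. A sign cannot turn without overlap, so the signs kept without CD36CKO 3 were fixed in advance. Fewer passed once that library was left out, 20 higher (0.164%) and 152 lower (1.24%), and 158 of the 516 were among them. Each library mattered to the count: without any 1 of the 3 CD36CKO libraries or WT 1 or WT 2, 8 to 34 genes were higher and 56 to 165 lower, and without WT 3 960 were higher and 1538 lower. Without CD36CKO 1, 23 were higher and 91 lower, and without CD36CKO 2, 8 and 56. A call lost without CD36CKO 3 therefore does not by itself show that the gene rests on that library. The split also moved with the scale. After removal of mitochondrial and haemoglobin genes and rescaling, 172 genes were higher and 150 lower, 53.4% higher in place of 27.3%, and the median gene stood at 0.23 on the log2 scale in place of -0.002. With the reads recovered from the FPKM values and tested by voom the split was 212 and 304 (41.1% higher), and 407 of these genes were among the 516. Of 68 named genes that passed, 15 passed in every other setting that tested them: Knstrn, Cdc20, Cdca3, Ube2c, Hmmr, Kifc1, Cdkn2d, Nppb, Uts2b, Kcnj2, Krt19, Isg15, Ifi27l2a, Irf7 and Bst2. The other 53 lost the call in at least 1 setting.

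**Figure D1:**
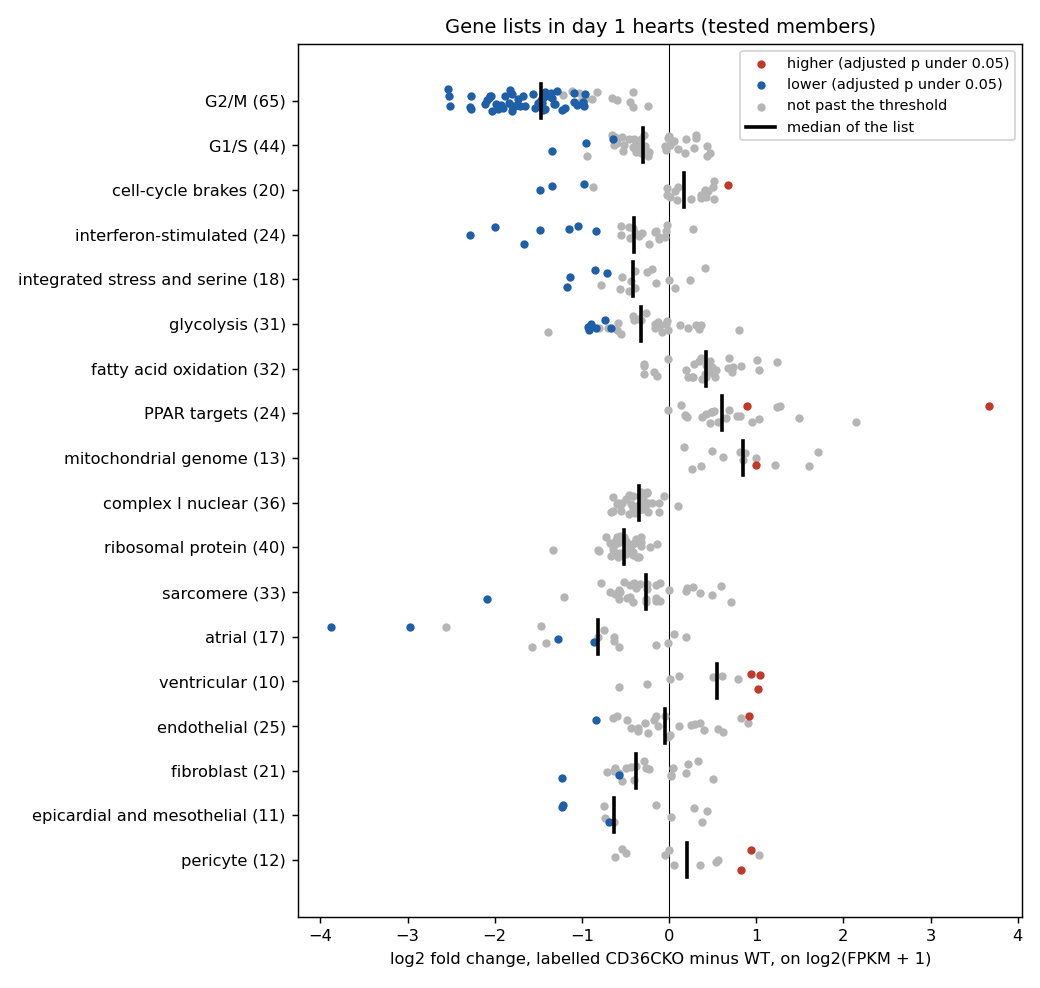
Log2 fold change, labelled CD36CKO minus WT, on log2(FPKM + 1) for the tested members of 18 gene lists, 1 point per gene, with the number of tested members in brackets and a black bar at the median. The G2/M list lies wholly below 0 with a median of -1.47, while the PPAR targets have a median of 0.61 and the atrial genes one of -0.82.

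Among the 55 gene lists, that of dividing cells had the most members past the threshold. Of 65 tested genes of the G2 phase and mitosis, 52 fell and none rose in CD36CKO-labelled hearts. This was 80% of the list, against 3.07% of all genes lower. That background, with 1.15% of all genes higher, applies to every list below. The median log2 fold change was -1.47 against -0.002 over all genes, and no member was above 0. Without CD36CKO 3, 42 fell and the median was -1.61. In 63 of the 65 the libraries did not overlap, with WT on top, against 17.0% of all genes. In a whole heart, fewer dividing cells and less of these transcripts per cell cannot be told apart.

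Among the members that fell was Cdc20, which switches on the anaphase-promoting complex. It had 8.30, 7.12 and 9.64 FPKM in CD36CKO hearts, against 44.6, 58.2 and 56.9 FPKM in WT hearts. Ube2c, the enzyme that supplies ubiquitin to the same complex, had 7.58, 5.66 and 8.74 FPKM, against 38.005, 47.4 and 55.3 FPKM in WT hearts. Cdca3, a trigger of mitotic entry, had 3.10, 3.63 and 5.30 FPKM, against 22.8, 31.3 and 27.8 FPKM in WT hearts. The CD36CKO means were 15.7%, 15.6% and 14.7% of the WT means, and no library of either group came near the other group. Their log2 fold changes were -2.54, -2.53 and -2.51 (SE 0.16, 0.19 and 0.19; adjusted p = 0.00107, 0.00231 and 0.00231 from limma). Hmmr, which encodes a receptor of hyaluronan that also binds the spindle, had 0.870, 0.966 and 0.815 FPKM in CD36CKO hearts, against 5.23, 5.54 and 7.51 FPKM in WT hearts (log2 fold change -1.90, SE 0.15). These 4 genes passed in every other setting in which they were tested. Cdc20 overlaps Elovl1 on the opposite strand, and whether counting used the strand is not stated, so its value is less certain.

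The promoters of these 4 genes are shown because the members of the list moved together and because mitotic genes are known to carry a pair of elements near their start, the cell-cycle homology region (CHR, searched as TTTGAA) and the CCAAT box (searched as CCAAT). Each window runs from 150 bases before the start of transcription to 50 bases after it, in RefSeq's annotation of GRCm38.p6, on the strand of the gene. Capitals mark every match of either motif on either strand, and no base belongs to both motifs. The positions are chr4:118437294-118437493 for Cdc20 and chr11:40733388-40733587 for Hmmr, both on the minus strand, and chr6:124830026-124830225 for Cdca3 and chr2:164769779-164769978 for Ube2c, both on the plus strand.
Cdc20: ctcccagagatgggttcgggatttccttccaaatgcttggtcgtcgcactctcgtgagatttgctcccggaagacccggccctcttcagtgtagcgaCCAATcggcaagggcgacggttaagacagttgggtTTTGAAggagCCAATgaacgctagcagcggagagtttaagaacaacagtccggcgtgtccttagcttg
Cdca3: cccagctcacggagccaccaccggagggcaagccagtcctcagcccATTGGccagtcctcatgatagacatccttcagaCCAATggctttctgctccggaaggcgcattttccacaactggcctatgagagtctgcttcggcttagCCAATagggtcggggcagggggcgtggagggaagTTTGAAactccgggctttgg
Ube2c: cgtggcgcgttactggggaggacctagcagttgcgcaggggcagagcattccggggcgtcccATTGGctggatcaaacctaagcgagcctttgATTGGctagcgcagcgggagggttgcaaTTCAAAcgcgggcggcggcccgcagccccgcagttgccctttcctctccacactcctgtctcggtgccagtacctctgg
Hmmr: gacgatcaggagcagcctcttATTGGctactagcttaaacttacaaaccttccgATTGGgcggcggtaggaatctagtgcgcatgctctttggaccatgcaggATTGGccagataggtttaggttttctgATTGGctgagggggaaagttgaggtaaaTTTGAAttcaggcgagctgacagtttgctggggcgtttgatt
Each window held 1 CHR match and 2 to 4 CCAAT matches. In the full windows of the table (250 bases before the start to 50 after it), 39 of the 56 tested G2/M genes found there held TTTGAA, 42 held CCAAT and 35 held both in 1 window, against 20.2%, 41.1% and 7.97% of all 27025 genes. Of the 36 tested G1/S genes found there, 7 held TTTGAA, 22 held CCAAT and 5 held both. A match describes the letters of the window and was not measured as a binding site.

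Cyclins and kinases of mitosis fell with them. Ccnb1, cyclin B1, had 2.13, 1.89 and 3.02 FPKM in CD36CKO hearts, against 11.9, 13.6 and 20.9 FPKM in WT hearts (log2 fold change -2.28, SE 0.22). Ccnb2 had 8.18, 9.02 and 10.2 FPKM, against 34.6, 43.3 and 51.1 FPKM in WT hearts (-2.11, SE 0.17). The kinase gene Cdk1, the partner of both cyclins, had 3.12, 2.45 and 4.32 FPKM, against 8.73, 12.0 and 18.4 FPKM in WT hearts (-1.67, SE 0.26). In each of the 3 the highest CD36CKO library was CD36CKO 3, and it lay below the lowest WT library. Plk1 and Aurka, which encode mitotic kinases, were at -1.97 and -2.04, and Foxm1, a transcription factor of G2/M genes, at -1.35. All 6 passed (adjusted p = 0.00261 to 0.0342 from limma).

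Genes of the spindle, the kinetochore and cell cleavage showed the same direction. Birc5 and Cdca8, subunits of the chromosomal passenger complex, were at -2.29 and -2.27. Knstrn, a spindle and kinetochore gene, had 1.73, 2.07 and 2.54 FPKM in CD36CKO hearts, against 12.7, 16.1 and 16.2 FPKM in WT hearts (-2.36, SE 0.15), and the kinesin gene Kifc1 was at -2.37 (SE 0.23). Among motor proteins of the list, Kif4 (-1.81), Kif22 (-1.98), Kif2c (-1.65) and Kif11 (-1.28) fell, and Racgap1 (-2.09), Ect2 (-1.34) and Anln (-1.20), which act in cell cleavage, fell as well. The proliferation marker Mki67 had 2.70, 2.39 and 3.62 FPKM in CD36CKO hearts, against 11.3, 10.7 and 17.4 FPKM in WT hearts (-1.84, SE 0.20), and Top2a, the DNA topoisomerase of dividing cells, was at -1.77. Under the other settings 27 to 61 members of the list fell, 27 without CD36CKO 1 or CD36CKO 2 and 58 without WT 3.

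**Figure D2:**
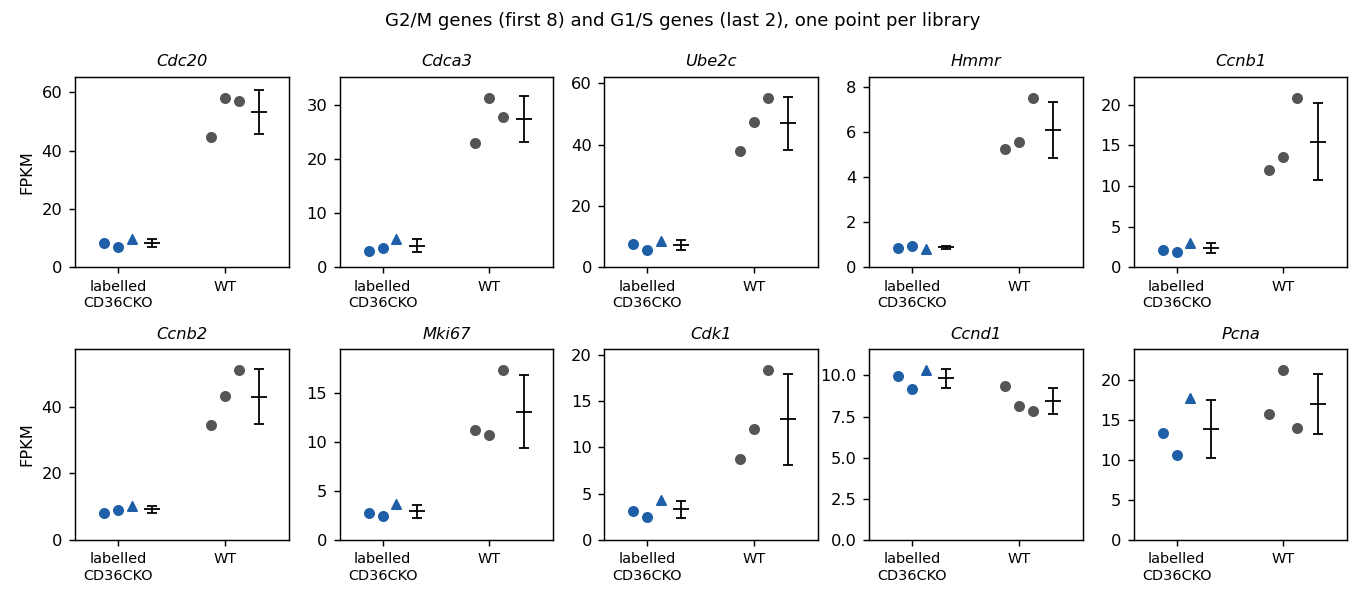
FPKM in each library for 8 genes of G2/M and 2 genes of G1/S (Ccnd1 and Pcna), labelled CD36CKO on the left and WT on the right of each panel. Triangles mark CD36CKO 3, the library with skeletal muscle transcripts, and bars give the mean ± SD (n = 3). The groups do not overlap in the first 8 panels, while they overlap for Ccnd1 and Pcna.

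Of 44 tested G1/S genes, 3 fell (6.82%, against 3.07% of all genes) and none rose, with a median of -0.30. They were Rrm2, a subunit of ribonucleotide reductase (-1.34, SE 0.29; adjusted p = 0.0464 from limma), Tk1, thymidine kinase (-0.95, SE 0.21; adjusted p = 0.0497 from limma), and Rpa2, of the protein that coats single-stranded DNA (-0.64, SE 0.14; adjusted p = 0.0434 from limma). Rrm2 had 5.75, 4.79 and 9.89 FPKM in CD36CKO hearts, against 13.9, 16.2 and 25.9 FPKM in WT hearts. Its libraries did not overlap, but each of the 3 calls lay close to the threshold, and without CD36CKO 3 the call of Rpa2 was lost (adjusted p = 0.0867 from limma). No member of the list fell without CD36CKO 1, CD36CKO 2, WT 1 or WT 2, with no filter, or after removal of mitochondrial and haemoglobin genes, and 7 fell and 2 rose without WT 3. Tk1 overlaps Afmid on the opposite strand. Ccnd1, cyclin D1, was at 0.20 and Mcm2, of the replicative helicase, at 0.03, and neither passed.

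Of 20 cell-cycle brakes, 3 fell and 1 rose (15% and 5%, against 3.07% and 1.15% of all genes), with a median of 0.17. Cdkn2d, an inhibitor of CDK4 and CDK6, had 20.7, 15.1 and 16.1 FPKM in CD36CKO hearts, against 44.7, 57.1 and 47.7 FPKM in WT hearts (log2 fold change -1.48, SE 0.17; adjusted p = 0.00670 from limma). Cdkn2c, of the same family, was at -0.98 (SE 0.14; adjusted p = 0.0156 from limma) and Gadd45g, a stress-induced growth arrest gene, at -1.34 (SE 0.21; adjusted p = 0.0194 from limma). Tob1, which restrains proliferation, rose (0.67, SE 0.15; adjusted p = 0.0494 from limma). Cdkn2d passed in every other setting, while Gadd45g and Tob1 were lost without CD36CKO 3. None of the 20 rose without any 1 of the 5 libraries other than WT 3, and 1 fell without CD36CKO 1 or CD36CKO 2, while 6 rose and 4 fell without WT 3.

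The libraries labelled CD36KO put these lists in another order. The mean log2(FPKM + 1) over the G2/M genes was 1.59, 1.52 and 1.87 in CD36CKO hearts, 2.43, 2.54 and 2.76 in CD36KO hearts and 2.91, 3.03 and 3.52 in WT hearts. Over the G1/S genes it was 2.40, 2.34 and 2.67 in CD36CKO hearts, 3.02, 3.13 and 3.24 in CD36KO hearts and 2.66, 2.78 and 2.70 in WT hearts. CD36CKO libraries were thus lowest for G2/M, and for G1/S the CD36KO libraries were highest while CD36CKO 3 lay between the lowest and the middle WT library. Tested directly over the 9 libraries, 39 of 65 G2/M genes and 27 of 44 G1/S genes were lower in CD36CKO than in CD36KO hearts and none was higher (medians -0.95 and -0.71), against 1.93% of all genes higher and 2.61% lower. That test uses the same CD36CKO libraries as the comparison with WT.

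**Figure D3:**
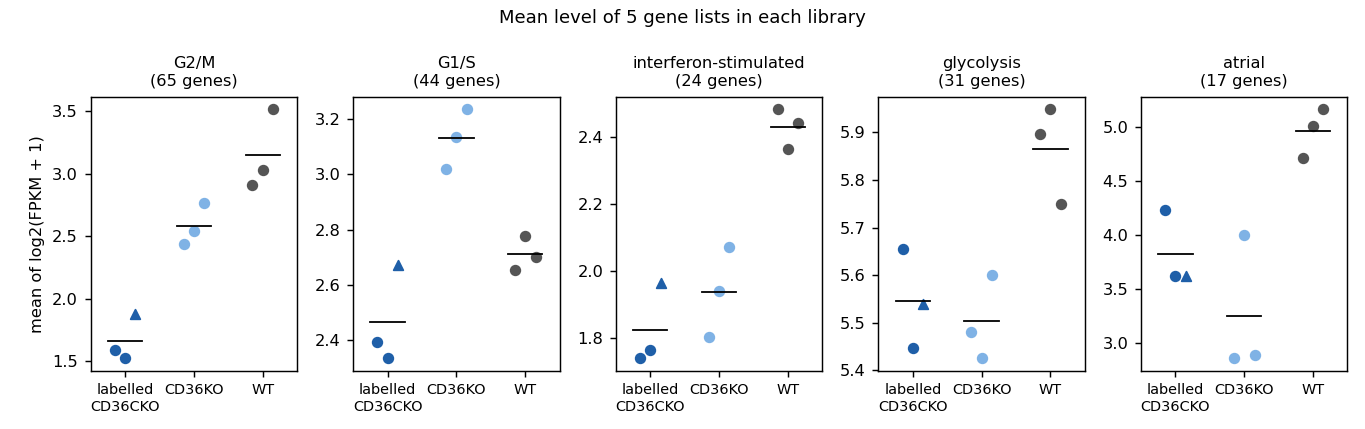
Mean of log2(FPKM + 1) over the tested members of 5 lists in each library, with labelled CD36CKO on the left, CD36KO in the middle and WT on the right. Lines give group means, triangles mark CD36CKO 3, and the axes do not start at 0. The G2/M means run from 1.52 to 1.87 in CD36CKO libraries and from 2.91 to 3.52 in WT libraries.

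Of the genes in the axis named by the study's title, Fabp5 fell. It had 47.3, 36.3 and 38.8 FPKM in CD36CKO hearts, against 65.7, 76.8 and 69.1 FPKM in WT hearts (log2 fold change -0.78, SE 0.15; adjusted p = 0.0365 from limma). The libraries did not overlap, and the call was lost without CD36CKO 3 (-0.75, adjusted p = 0.110 from limma). It was also lost without CD36CKO 1, CD36CKO 2, WT 1 or WT 2. The same held with no filter, quantile normalization, a replicate block, or mitochondrial and haemoglobin genes removed. Ppard, the nuclear receptor, had 2.70, 4.18 and 3.31 FPKM, against 3.26, 3.16 and 3.81 FPKM in WT hearts, and its log2 fold change of -0.02 changed sign in 5 other settings. The retinoid X receptor genes Rxra (-0.09), Rxrb (-0.17) and Rxrg (0.34) did not pass either, and Rxrg stood at 2.94 FPKM in CD36CKO 3 and at 0.617 to 0.949 FPKM in the other 5 libraries. The study chose these genes on these samples, so the direction of Fabp5 is not independent evidence.

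Of 24 tested PPAR targets, 2 rose (8.33%, against 1.15% of all genes) and none fell, and the median was 0.61. Without WT 3, 10 rose and the median was 0.38, and without any other 1 library 1 rose. Among those that rose was Txnip, an inhibitor of thioredoxin that also limits glucose uptake (0.90, SE 0.19; adjusted p = 0.0420 from limma), which was lost without CD36CKO 3 and overlaps Gm15441 on the opposite strand. Ucp3, a mitochondrial carrier, had 18.4, 22.6 and 29.5 FPKM in CD36CKO hearts, against 6.59, 8.52 and 1.22 FPKM in WT hearts (2.15; adjusted p = 0.0562 from limma), and Angptl4, an inhibitor of lipoprotein lipase, had 4.06 FPKM in WT 3 and 38.3 to 54.8 FPKM in the other 5 libraries.

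Fatty acid oxidation genes did not pass one by one. None of 32 rose or fell, and their median was 0.42, with 26 above 0 and 19 whose libraries did not overlap, with CD36CKO on top, against 15.6% of all genes. Those nearest the threshold were Cpt1a, the entry step of long-chain fatty acids into mitochondria (0.68; adjusted p = 0.0679 from limma), and Etfdh, which passes electrons from the oxidation to the respiratory chain (0.73; adjusted p = 0.0835 from limma). Hadhb, of the trifunctional protein, had 122, 106 and 108 FPKM in CD36CKO hearts, against 72.4, 69.3 and 33.3 FPKM in WT hearts. WT 3 was the lowest library for it, and without WT 3 the median of the list was 0.24, 5 genes rose and 1 fell. With quantile normalization 10 of the 32 rose, and 11 did after removal of mitochondrial and haemoglobin genes. Of 23 PPAR and ERR regulators none passed (median 0.25). Of 22 fatty acid uptake genes, Meox2, a transcription factor of heart endothelium, rose (0.75, SE 0.12; adjusted p = 0.0209 from limma), and of 27 lipid synthesis genes Gpam, the first step of glycerolipid synthesis (0.78, SE 0.13; adjusted p = 0.0221 from limma), and neither passed without CD36CKO 3.

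Of 31 tested glycolysis genes, 6 fell (19.35%, against 3.07% of all genes) and none rose in CD36CKO-labelled hearts. Eno1, an enolase, had 118, 106 and 99.0 FPKM in CD36CKO hearts, against 210, 232 and 177 FPKM in WT hearts (-0.93, SE 0.17). Pkm, pyruvate kinase, had 199, 175 and 204 FPKM, against 382, 410 and 306 FPKM in WT hearts (-0.92, SE 0.18). Ldha, lactate dehydrogenase A, had 242, 200 and 225 FPKM, against 408, 481 and 361 FPKM in WT hearts (-0.90, SE 0.18). In all 3 every CD36CKO library lay below every WT library. Pgk1 (-0.83), Aldoc (-0.73) and Pfkl (-0.67) also fell, with adjusted p-values of the 6 between 0.0210 and 0.0483 from limma. None of the 6 passed without CD36CKO 3, nor without CD36CKO 1, CD36CKO 2, WT 1 or WT 2. Without WT 3, 10 members of the list fell and 1 rose. The median of the list was -0.32, and it was -0.04 both under quantile normalization (5 members fell and 1 rose) and after mitochondrial and haemoglobin genes were left out (4 fell).

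**Figure D4:**
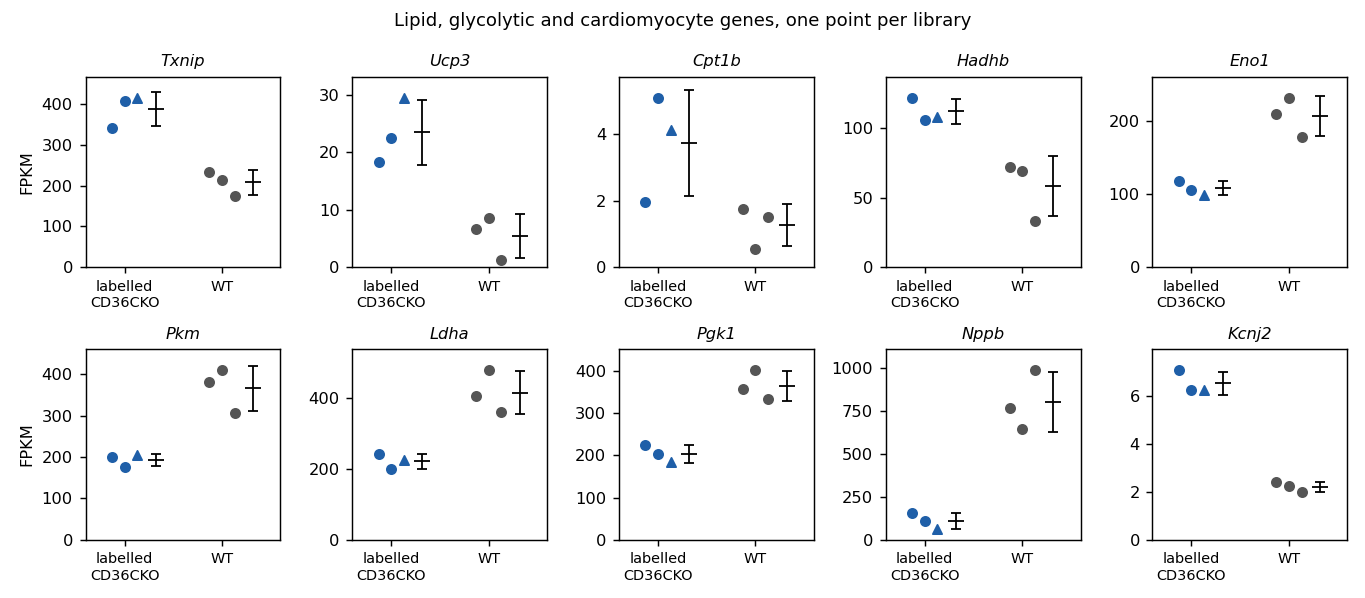
FPKM in each library for 4 genes of the PPAR target or fatty acid oxidation lists, 4 of glycolysis and 2 of heart muscle. Labelled CD36CKO is on the left and WT on the right of each panel. Triangles mark CD36CKO 3 and bars give the mean ± SD (n = 3). Ucp3 stands at 18.4 to 29.5 FPKM in CD36CKO hearts and at 1.22 to 8.52 FPKM in WT hearts, and the 4 glycolysis genes are below WT in every library.

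All 13 genes of the mitochondrial genome were above 0 (median 0.84), but only mt-Nd4l, a subunit of complex I, passed (1.00, SE 0.13; adjusted p = 0.0118 from limma), and it overlaps mt-Nd4 on the same strand. Nuclear genes of complex I had a median of -0.35 with none of 36 past the threshold, and those of complexes III to V a median of -0.37 with 1 of 38, Atp5k, lower (-1.13; adjusted p = 0.0340 from limma; lost without CD36CKO 3). Cytosolic ribosomal protein genes had a median of -0.52, with all 40 below 0 and none past the threshold. In 29 of the 40 the libraries did not overlap, with WT on top, against 17.0% of all genes. Neither the 23 TCA cycle genes (median -0.03) nor the 76 mitochondrial ribosomal genes (-0.18) had a member past the threshold.

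These medians and counts moved with the scale and with WT 3. The mitochondrial share of the reads was higher in every CD36CKO library than in any WT library. With mitochondrial and haemoglobin genes removed the medians were -0.07 for nuclear genes of complex I, -0.09 for complexes III to V and -0.24 for ribosomal proteins, of which 1 fell. With quantile normalization they were 0.005, -0.02 and -0.12, and 0.67 for the mitochondrial genome. Without WT 3, 21 of the 36 genes of complex I (median -0.63), 22 of the 38 of complexes III to V (-0.65), 26 of the 40 ribosomal protein genes (-0.68), 32 of the 76 mitochondrial ribosomal genes (-0.44) and 4 of the 23 TCA cycle genes fell, and 7 of the 13 genes of the mitochondrial genome rose. With library weights 15, 18, 26, 22 and 3 members of the same nuclear lists fell. In both settings 1 mitochondrial ribosomal gene rose. Without WT 2 none of the nuclear genes in these lists passed, and the medians were -0.15 for complex I, -0.19 for complexes III to V and -0.35 for ribosomal proteins.

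Nppb and Ankrd1, genes of stretched heart muscle, fell. Nppb encodes B-type natriuretic peptide, a hormone released when the heart wall is stretched. It had 156, 106 and 62.0 FPKM in CD36CKO hearts, against 769, 645 and 990 FPKM in WT hearts (log2 fold change -2.95, SE 0.34; adjusted p = 0.00720 from limma). Ankrd1, a stretch-responsive sarcomere protein and YAP target, had 168, 91.0 and 46.6 FPKM, against 419, 329 and 410 FPKM in WT hearts (-2.09, SE 0.41; adjusted p = 0.0368 from limma). Both were lowest in CD36CKO 3, and the groups did not overlap. Nppb passed in all 15 other settings, whereas Ankrd1 was lost without CD36CKO 3 (adjusted p = 0.0614 from limma) and overlaps another gene on the opposite strand. Of the 16 stretch and YAP targets these 2 fell and 1 rose. Of 33 sarcomere genes Ankrd1 alone passed (median -0.27), and the cardiac myosin heavy chain genes Myh6 (-0.45) and Myh7 (-0.38) did not. Myh7 had 479, 552 and 217 FPKM in CD36CKO hearts, against 542, 429 and 543 FPKM in WT hearts, and its difference was 0.035 without CD36CKO 3.

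Of 17 atrial genes 4 fell (23.5%, against 3.07% of all genes) and none rose, with levels that differed among the CD36CKO libraries. Myl7, the atrial myosin light chain, had 656, 106 and 81.6 FPKM in CD36CKO hearts, against 2215, 3332 and 2475 FPKM in WT hearts (-3.87, SE 0.70; adjusted p = 0.0290 from limma). Myl4, its essential light chain partner, had 94.1, 34.6 and 34.5 FPKM, against 299, 517 and 374 FPKM in WT hearts (-2.97, SE 0.40; adjusted p = 0.0121 from limma). CD36CKO 1 was the highest CD36CKO library for both genes, and the groups did not overlap. Stard10 (-1.27) and Kcnj3 (-0.86) were the other atrial genes that fell, and the median of the list was -0.82. Nppa, of atrial natriuretic peptide (-1.47; adjusted p = 0.0777 from limma), Sln (-2.56; adjusted p = 0.116 from limma) and Bmp10 (-1.57; adjusted p = 0.0873 from limma) did not pass. Sln is also in the skeletal muscle list. It had 42.3, 4.30 and 64.7 FPKM in CD36CKO hearts, highest in CD36CKO 3, and stood at -3.27 without that library. Without CD36CKO 3 only Myl4 of the 17 passed. None did without CD36CKO 2 or with no filter, 1 fell without WT 1 or WT 2, 3 fell without CD36CKO 1 and 8 fell without WT 3. Mybphl, an atrial myosin-binding protein (16.4, 2.07 and 1.5002 FPKM in CD36CKO hearts, against 33.3, 51.6 and 44.7 FPKM in WT hearts), and Uts2b, a urotensin peptide (1.30, 0.0511 and 0 FPKM, against 7.83, 12.1 and 8.94 FPKM in WT hearts), were also among the largest falls, and CD36CKO 1 was again the highest library of its group. Mybphl passed narrowly (adjusted p = 0.0439 from limma) and was lost in 10 of the 15 other settings, among them that without CD36CKO 3. Uts2b passed in all 15. The share of atrial tissue in each heart was not measured, and its part in these falls and in that of Nppb, which had the same order among the CD36CKO libraries, was not tested.

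Of 19 ion channel and junction genes 1 rose, Kcnj2, and none fell (median 0.25). Kcnj2, the inward rectifier that holds the resting potential of ventricular muscle, had 7.07, 6.24 and 6.22 FPKM in CD36CKO hearts, against 2.39, 2.24 and 1.97 FPKM in WT hearts (1.23, SE 0.12; adjusted p = 0.00473 from limma). Its groups lay far apart relative to their spread, and it passed in every other setting tested. Of 10 ventricular genes, 3 rose (30%, against 1.15% of all genes), none fell and the median was 0.55. Those that rose were Kcnip2, a subunit of the transient outward potassium current (1.04), Hey2, a repressor of atrial genes (1.02), and Irx5, a patterning factor (0.94). Their adjusted p-values were 0.0331, 0.0340 and 0.0138 from limma. Irx5 alone of the 3 passed without CD36CKO 3. None of the 10 passed without CD36CKO 1 or CD36CKO 2, and 5 rose and 1 fell without WT 3. Among 24 mature isoforms Kcnj2 and Asb14, of a ubiquitin ligase family (1.43, SE 0.21; adjusted p = 0.0155 from limma), rose. Among 19 calcium handling genes Fkbp1b, which stabilizes the ryanodine receptor, fell (-0.91, SE 0.14; adjusted p = 0.0194 from limma), and none of 20 cardiac transcription factors passed. Among 21 fetal isoforms Nppb, Ankrd1, Myl7 and Myl4 fell and none rose. Among 29 growth signals, Mycn rose (0.73; adjusted p = 0.0470 from limma) and Igfbp2, an IGF-binding protein, fell (-1.85; adjusted p = 0.0209 from limma). Asb14, Fkbp1b, Mycn and Igfbp2 did not pass without CD36CKO 3.

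The other protein-coding genes with the largest rises were Gm17545, ENSMUSG00000095041, Tmem82, Clk1, Hsdl2, Tnfrsf25 and Sned1. Clk1, a kinase of splicing factors, had 17.3, 23.983 and 19.6 FPKM in CD36CKO hearts, against 7.63, 5.86 and 11.5 FPKM in WT hearts (1.22; adjusted p = 0.0321 from limma). Hsdl2, a peroxisomal and mitochondrial protein of lipid metabolism, had 93.0, 92.5 and 73.3 FPKM, against 48.7, 41.9 and 26.3 FPKM in WT hearts (1.16; adjusted p = 0.0411 from limma). Tmem82 was at 1.46, ENSMUSG00000095041 at 1.47, Tnfrsf25 at 1.15 and Sned1 at 1.11. ENSMUSG00000095041 alone of these passed without CD36CKO 3. The log2 fold changes of Tmem82 (1.47), Clk1 (1.24) and Tnfrsf25 (1.11) were nearly the same without that library. Gm17545 had 0.656, 2.37 and 3.32 FPKM in CD36CKO hearts and no read in WT hearts, and it overlaps Rp9 on the opposite strand.

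Of 24 tested interferon-stimulated genes, 7 fell (29.2%, against 3.07% of all genes) and none rose in CD36CKO-labelled hearts. The median was -0.40, and 6 fell without CD36CKO 3. Isg15, a ubiquitin-like modifier, had 4.64, 4.003 and 5.53 FPKM in CD36CKO hearts, against 24.5, 25.2 and 16.7 FPKM in WT hearts (-2.001, SE 0.18; adjusted p = 0.00473 from limma). Ifi27l2a had 8.47, 5.71 and 9.95 FPKM, against 46.1, 55.4 and 29.2 FPKM in WT hearts (-2.28, SE 0.27; adjusted p = 0.00773 from limma). Every CD36CKO library was below every WT library in both. Bst2, which tethers budding viruses (-1.66), Irf7, a transcription factor of the response (-1.15), Ifit3 (-1.48), Rtp4 (-1.05) and Oasl2 (-0.84) also fell. Between 4 and 13 members fell in the other settings that tested all 24. With a mean of at least 5 FPKM only 5 were tested, and 3 fell.

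The windows of Isg15 and Ifit3 are shown because this group is known for the interferon-stimulated response element, searched as GAAANNGAAA on both strands and marked in capitals. They cover chr4:156200769-156200968 on the minus strand and chr19:34583379-34583578 on the plus strand of GRCm38.p6, from RefSeq, 150 bases before the start of transcription to 50 after it.
Isg15: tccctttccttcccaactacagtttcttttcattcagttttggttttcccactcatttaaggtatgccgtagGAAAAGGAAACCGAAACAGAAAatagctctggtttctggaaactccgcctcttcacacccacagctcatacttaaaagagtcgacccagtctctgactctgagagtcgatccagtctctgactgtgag
Ifit3: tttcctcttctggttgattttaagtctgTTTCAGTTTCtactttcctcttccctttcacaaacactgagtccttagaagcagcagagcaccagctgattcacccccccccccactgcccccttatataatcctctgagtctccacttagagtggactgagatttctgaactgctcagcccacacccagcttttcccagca
Isg15 held 3 matches that overlap each other and Ifit3 held 1, read on the opposite strand. In the full windows the motif stood in 11 of the 18 tested interferon-stimulated genes found there and in 3.99% of all genes.

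Of 18 genes of the integrated stress response and serine synthesis, 4 fell (22.2%, against 3.07% of all genes) and none rose (median -0.42). Phgdh, the first enzyme of serine synthesis, had 3.23, 2.62 and 2.89 FPKM in CD36CKO hearts, against 7.57, 8.95 and 6.42 FPKM in WT hearts (-1.14, SE 0.14; adjusted p = 0.00927 from limma). Psat1, the next enzyme, was at -0.85, and Mthfd2, of mitochondrial one-carbon metabolism, at -1.17 (adjusted p = 0.0142 and 0.0101 from limma). The fourth was Ppp1r15a, which reverses the stress arrest of translation (-0.71; adjusted p = 0.0398 from limma). Phgdh and Mthfd2 passed without CD36CKO 3, Psat1 and Ppp1r15a did not. None of the 18 passed without CD36CKO 2, and 7 fell without WT 3. Among 23 immediate early genes Atf3 fell (-1.24; adjusted p = 0.0455 from limma; lost without CD36CKO 3), and none of the hypoxia (20 genes), heat shock (18), circadian clock (16) or glucocorticoid-responsive (17) lists passed. Vegfa, an endothelial growth factor, was at 1.04 (adjusted p = 0.0545 from limma).

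Markers of the other cell types of the heart moved in small numbers, and with 1.15% of all genes higher and 3.07% lower, 1 member in a list of 20 to 40 genes lies close to the background. Of 11 epicardial and mesothelial genes the keratin genes Krt19 (-1.23), Krt18 (-1.21) and Krt8 (-0.69) fell (27.3%, against 3.07% of all genes). Krt19 had 5.07, 3.86 and 4.26 FPKM in CD36CKO hearts, against 11.2, 11.2 and 12.3 FPKM in WT hearts. Krt19 passed in all 15 other settings (adjusted p = 0.00568 from limma), the other 2 were lost without CD36CKO 3. Of 21 fibroblast genes Fbln1 (-1.23; adjusted p = 0.00933 from limma) and Fbln2 (-0.58; adjusted p = 0.0471 from limma), of the matrix, fell, and of 35 matrix genes Col18a1, a basement membrane collagen (-0.78; adjusted p = 0.0233 from limma). Of 25 endothelial genes Vwf, the clotting factor of vessel walls, fell (-0.84; adjusted p = 0.0101 from limma) and Sox18 rose (0.92; adjusted p = 0.0156 from limma). Of 12 pericyte genes Rgs5 (0.82) and Abcc9 (0.94) rose (16.7%, against 1.15% of all genes). Fbln1, Vwf and Sox18 passed without CD36CKO 3, and Fbln2, Col18a1, Rgs5 and Abcc9 did not. No tested member of the endocardial, smooth muscle, macrophage, neutrophil, platelet, erythroid or adipose lists passed, and none of the lymphoid markers reached the level tested. Of 4 liver genes Alb fell (-2.02; adjusted p = 0.00871 from limma), at no more than 0.127 FPKM in CD36CKO hearts, against 2.26 to 5.35 FPKM in WT hearts.

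Of 9 tested genes in a list for the Cd36 region of chromosome 5, Gnai1, a G-protein subunit, rose (0.65, SE 0.13; adjusted p = 0.0371 from limma) and none fell. That list does not hold AI506816, a gene of the same chromosome that was lower (-3.05) and is described under other observations. Of 8 genes known to differ between mouse substrains Erdr1 rose (1.41, SE 0.25; adjusted p = 0.0258 from limma). Erdr1 passed without CD36CKO 3 and Gnai1 did not. Erdr1 had 10.4, 20.7 and 10.1 FPKM in CD36CKO hearts, against 3.99, 4.15 and 4.66 FPKM in WT hearts. None of the 17 imprinted growth genes passed. No gene of the skeletal muscle list passed with all 6 libraries, in which the CD36CKO libraries scattered widely. Acta1, skeletal actin, had 62.5, 42.0 and 1813 FPKM in CD36CKO hearts, against 78.6, 111 and 53.7 FPKM in WT hearts. Its log2 fold change was 1.11 with all 6 libraries and -0.59 without CD36CKO 3, and that of Mylpf was 2.01 and -0.81.

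**Figure D5:**
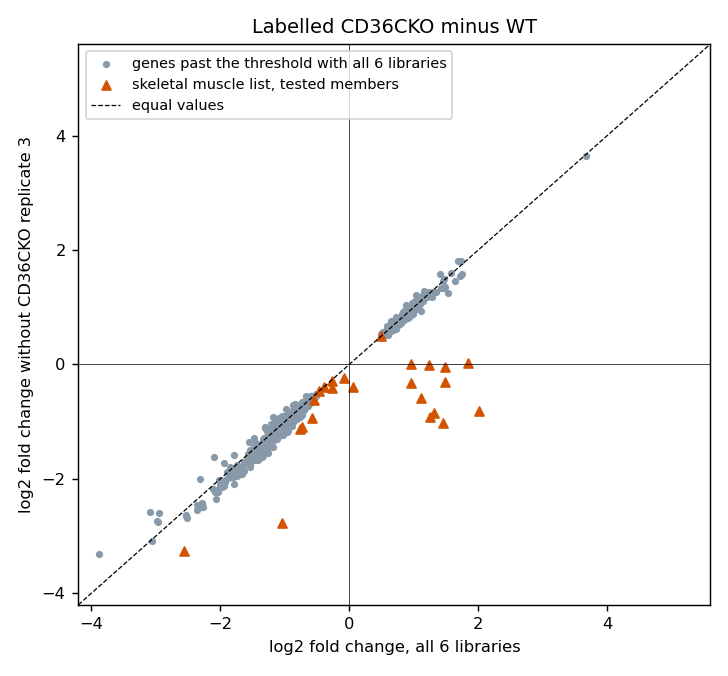
Log2 fold change, labelled CD36CKO minus WT, with all 6 libraries (horizontal) and without CD36CKO 3 (vertical), for the 516 genes past the threshold (dots) and the tested skeletal muscle genes (triangles). The 516 genes lie near the line of equal values, and as their libraries do not overlap their sign cannot turn. Several skeletal muscle genes drop to or below 0, among them Acta1 (1.11 and -0.59).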

How the data were processed

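The authors deposited FPKM values for 56748 genes in 9 libraries, per the file headers. Poly-A RNA and directional dUTP libraries are given per the labels' protocols, and the submitters' processing notes name CASAVA, HISAT2, HISAT and TopHat2 with no version. The sources used here do not give the counter, its use of strand or the genome build. FPKM scales to library size, so an abundant class of transcripts lowers all others.

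Multiplying each value by gene length gave whole reads for 100% of values (within 0.05), 15155839 to 20725356 per library of the 6 compared, of which 0 reads allow up to 3 reads (0.128 to 0.180 FPKM for a 1 kb gene, counting error only). Genes with a mean of at least 1 FPKM over the 6 libraries (12209) were tested on log2(FPKM + 1) with limma 3.58.1 in R 4.3.3 (trend, 4 residual and 3.85 prior degrees of freedom, two-sided, Benjamini-Hochberg, threshold 0.05). The scale understates changes of low genes. A 9-library fit compared CD36CKO with CD36KO (12206 genes). The fit was also run on simulated data, with the same dispersion for every gene and no outlying library. That run checked the code only and cannot show how the fit handles a library such as WT 3.

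The 15 alternatives were a pseudocount of 0.1, no filter, a mean of at least 5 FPKM, quantile normalization, removal of mitochondrial and haemoglobin genes, a replicate block, all 9 libraries, library weights, voom on recovered reads (which called 516 genes) and leaving out each library. Comparisons, members and the 55 gene lists were chosen with earlier results of these data known. The genes named were Cd36, the study's axis, the 10 protein-coding genes that changed most each way among those that passed without overlap and kept their sign without CD36CKO 3, up to 4 passing members of each list by smallest p (or up to 2 where none passed), and 6 skeletal muscle genes; 3 genes so chosen are not reported here. Other members and Myh6, Myh7, Ucp3, Angptl4, Hadhb, Nppa, Bmp10, Ccnd1 and Mcm2 were chosen after their values were seen.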

Additional observations from a re-analysis of the deposited data

Results flagged for a closer look

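Of the named genes, 120 were tested for a difference between CD36CKO-labelled and CD36KO hearts over all 9 libraries. At an adjusted p under 0.05 from limma 24 differed, 10 higher and 14 lower in CD36CKO. Over all genes 1.93% were higher and 2.61% lower. Most named genes were chosen by their difference from WT, and the test uses the same CD36CKO libraries, so a larger share was to be expected. The 24 genes are given here because the effect of the 2 knockout labels relative to the same WT libraries then differs by the test of the difference itself. The values are log2 fold changes, CD36CKO minus CD36KO.

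Lower in CD36CKO hearts were the cell-cycle genes Cdc20 (-1.17), Cdca3 (-1.21), Ube2c (-1.14), Kifc1 (-1.14), Hmmr (-0.97), Knstrn (-0.92), Rrm2 (-1.49), Tk1 (-0.98), Rpa2 (-0.68) and the inhibitor gene Cdkn2c (-1.04). Cdkn2c had 6.68, 5.48 and 7.75 FPKM in CD36CKO hearts, 12.9, 14.9 and 16.2 FPKM in CD36KO hearts and 12.7, 14.7 and 14.5 FPKM in WT hearts. Atf3 (-1.97), an immediate early transcription factor, had 1.95, 2.12 and 3.39 FPKM in CD36CKO hearts and 8.87, 15.7 and 13.7 FPKM in CD36KO hearts. The respiratory chain genes Atp5k (-1.10) and Ndufa3 (-0.70) and the one-carbon gene Mthfd2 (-0.54) were lower too.

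Higher in CD36CKO hearts were Cd36 (1.46), Erdr1 (2.23), Tnfrsf25 (1.35), Clk1 (1.35), Cnn1 (1.33), Tmem82 (1.22), ENSMUSG00000095041 (1.17), Hey2 (0.80), Kcnj2 (0.75) and Krt19 (0.65). Erdr1 had 10.4, 20.7 and 10.1 FPKM in CD36CKO hearts and 2.24, 1.22 and 2.69 FPKM in CD36KO hearts. Krt19 was lowest in CD36KO hearts, at 2.55, 2.80 and 2.01 FPKM, and CD36CKO hearts lay between these and WT.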

How the results depend on the processing

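The 141 genes higher and 375 lower became 27 and 86 with no filter, where 29113 genes were tested, 77 higher with a mean of at least 5 FPKM, 150 lower with mitochondrial and haemoglobin genes removed, 651 and 896 with all 9 libraries, 1369 and 1762 with library weights, and 212 higher with voom. Leaving out 1 library gave 8 to 960 higher and 56 to 1538 lower, the largest without WT 3. The 553 genes that differed between CD36CKO and CD36KO became 360 with mitochondrial and haemoglobin genes removed, and 29 to 351 with 1 library left out. Cd36 passed with quantile normalization alone (0.67); the other settings gave 0.21 to 0.60. With a replicate block 34 genes were higher and 158 lower, 179 of them among the 516. The deviations of same-numbered CD36CKO and WT libraries correlated at 0.07, -0.43 and -0.04, so the numbers were not taken to pair the samples. Of the named genes, 15 of the 68 that passed did so in every other setting that tested them. Signs turned for 9 genes that did not pass: after removal of mitochondrial and haemoglobin genes for Rxrb (0.104), Rxra (0.168), Dbh (0.132), Ppard (0.207), Des (0.013) and Eno3 (0.008), with quantile normalization for Des (0.069) and Eno3 (0.104), with voom for Dbh (0.049) and Ppard (0.062) and with library weights for Ppard (0.071). With 1 library left out Rxrg ran from -0.052 to 0.537, Mylpf from -0.809 to 3.431 and Acta1 from -0.590 to 2.109 (each lowest without CD36CKO 3 and highest without CD36CKO 2), Dbh from -0.310 to 0.132 and Ppard from -0.141 to 0.102. Apart from the filter, whose larger number of tests is by construction, the cause of these changes was not tested.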

Other observations

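AI506816, a long noncoding RNA, had the smallest p-value of all genes tested and was chosen after its values were seen. It lies on chromosome 5, 23903294 to 23917684 on the minus strand in the deposited table (build not stated). That is 5809495 bases above the highest coordinate of Cd36, which is the start of Cd36, as that gene is on the minus strand. It had 0.990, 0.424 and 0.815 FPKM in CD36CKO-labelled hearts and 1.13, 0.885 and 0.954 FPKM in CD36KO hearts, against 12.6, 14.4 and 12.989 FPKM in WT hearts. Both labelled groups lay far below every WT library, at a log2 fold change of -3.05 for CD36CKO (SE 0.15; adjusted p = 0.000537 from limma), and it passed in all 15 other settings. The difference between CD36CKO and CD36KO was -0.20 (adjusted p = 0.410 from limma).

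Some genes outside the lists were chosen after their values were seen, so they add no support to the fall of the G2/M list. Hmgb2, a chromatin protein of dividing cells, had 14.9, 14.0 and 16.0 FPKM in CD36CKO hearts, against 29.6, 33.7 and 46.0 FPKM in WT hearts (-1.21), and Pbk, a mitotic kinase, had 2.22, 1.19 and 3.47 FPKM, against 6.61, 9.52 and 11.5 FPKM in WT hearts (-1.66). Both passed with and without CD36CKO 3, but of the 15 other settings Hmgb2 was lost in 4 and Pbk in 5. Gpx3, a secreted glutathione peroxidase, had 190, 108 and 88.4 FPKM in CD36CKO hearts, against 326, 562 and 578 FPKM in WT hearts (-1.95; adjusted p = 0.0238 from limma), and was lost without CD36CKO 3.

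Apln, the ligand of the apelin receptor, had 2.48, 1.69 and 3.88 FPKM in CD36CKO hearts, 13.7, 14.6 and 18.1 FPKM in CD36KO hearts and 2.75, 2.40 and 4.08 FPKM in WT hearts. The CD36CKO libraries overlapped WT (-0.17; adjusted p = 0.684 from limma) and were below CD36KO by 2.20 on the log2 scale (adjusted p = 0.00804 from limma).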
